A study of Mus musculus with 6 samples.

Results

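Input libraries, sequenced from sheared chromatin without an antibody step, were compared between 3 genotypes at regions that carry H3K27ac peaks in all of them. The inputs come from RAW264.7, a macrophage-like mouse line made with a leukaemia virus, and each is a single library: wild type (labelled Naive), Bmal1 knockout (Bmal1KO) and Mfp2 knockout (Mfp2KO). All were grown in DMEM with 5% serum, with no stimulus in the labels, and each is paired with 1 ChIP library for histone H3 acetylated at lysine 27, a mark of active promoters and enhancers. BMAL1 switches on genes of the circadian clock, and MFP2 is an enzyme of peroxisomal β-oxidation. Whether each knockout line is 1 clone is not given in the labels, and input DNA carries no expression by which the cell type could be checked.

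Input was read only where H3K27ac peaks were called. Peaks of the 3 lists were merged where they overlapped by 1 bp, and the regions called in all of them on chromosomes 1 to 19 were kept, 14443 of 38990 merged regions on these chromosomes (37.0%) and of 39754 on all sequences. The rule sets no limit on input itself, but the authors' peak calls required 4-fold enrichment over input, so a region with much input needed much ChIP signal to be listed. Input depth was 14.9 M tags for the wild type, 12.9 M for Bmal1KO and 12.8 M for Mfp2KO. Since each genotype has a single input, no difference was tested, and every interval below is a 95% interval that covers the counting of tags only, with each tag taken as 1 independent event. Positions are in mouse build mm39, for which no gene annotation was used here.

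Input DNA is the chromatin of a ChIP-seq experiment that was fixed and sheared but never met the antibody. Its reads follow how many copies of a sequence the cells carry, how easily chromatin breaks there and how well the sequence is amplified and mapped. Open chromatin shears more readily, so input is often denser at promoters and enhancers, and a lost or extra chromosome appears as lower or higher input along its whole length. Peak callers divide the ChIP signal by this background, so an input that differs between genotypes enters every enrichment value.

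The Mfp2KO input was denser in acetylated regions than the other two. Input density, the tags per kb of sequence called in that genotype divided by the mean of the library over the authors' genome size of 2.65 Gb, was 1.63 in the wild type (interval 1.63 to 1.64), 1.75 in Bmal1KO (1.75 to 1.76) and 2.62 in Mfp2KO (2.61 to 2.62). The same regions thus took 3.08% of the wild-type input in 1.89% of the genome, 2.53% of the Bmal1KO input in 1.44%, and 3.69% of the Mfp2KO input in 1.41%. Before scaling, these were 9.15, 8.54 and 12.7 input tags per kb.

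Relative to wild type, Mfp2KO input density was 1.6 times as high (1.6 to 1.61), and relative to Bmal1KO 1.49 times (1.49 to 1.5). Bmal1KO differed from wild type by much less, at 1.07 times (1.07 to 1.08), and on which side it lay turned with the lengths compared. In the 3005 regions whose called lengths in the 3 genotypes differed by at most 25%, Bmal1KO was at 0.992 of wild type (0.984 to 1.00), and Mfp2KO at 1.5 (1.49 to 1.51). The excess of Mfp2KO was therefore nearly as large where the called lengths were alike.

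The excess was spread over most regions. Input density was higher in Mfp2KO than in wild type in 74.4% of the shared regions and higher than in Bmal1KO in 77%, whereas Bmal1KO exceeded wild type in 48.3%. The median region stood at 1.55, 1.56 and 2.28 times the library mean in the wild type, Bmal1KO and Mfp2KO. The upper quartile was 2.13, 2.21 and 3.61, but the lower quartile was 1.07, 0.997 and 1.14, so the inputs differed little at the low end. Densities over 4 times the library mean were found in 0.789% of regions in the wild type, 1.18% in Bmal1KO and 19% in Mfp2KO. A single region held few input tags, with medians of 27, 19.5 and 28, so values of single regions are imprecise.

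Input density rose with H3K27ac in all 3 genotypes, over the widest range in Mfp2KO. The shared regions were ranked by ChIP tags per kb, averaged over the genotypes, and divided into 10 equal groups. This mean weighs Mfp2KO most: in the highest group its ChIP density was 355 tags per kb, against 165 in wild type and 230 in Bmal1KO. The ranking thus favours a wide range in Mfp2KO. From the lowest to the highest decile, input density went from 0.783 to 2.43 times the library mean in the wild type, from 0.670 to 2.55 in Bmal1KO and from 0.673 to 4.57 in Mfp2KO. The highest decile was thus 3.11, 3.80 and 6.79 times the lowest. ChIP density itself rose 7.56, 12.6 and 20.1 times over these deciles, so a steeper rise of input per unit of H3K27ac was not shown.

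**Figure D1:**
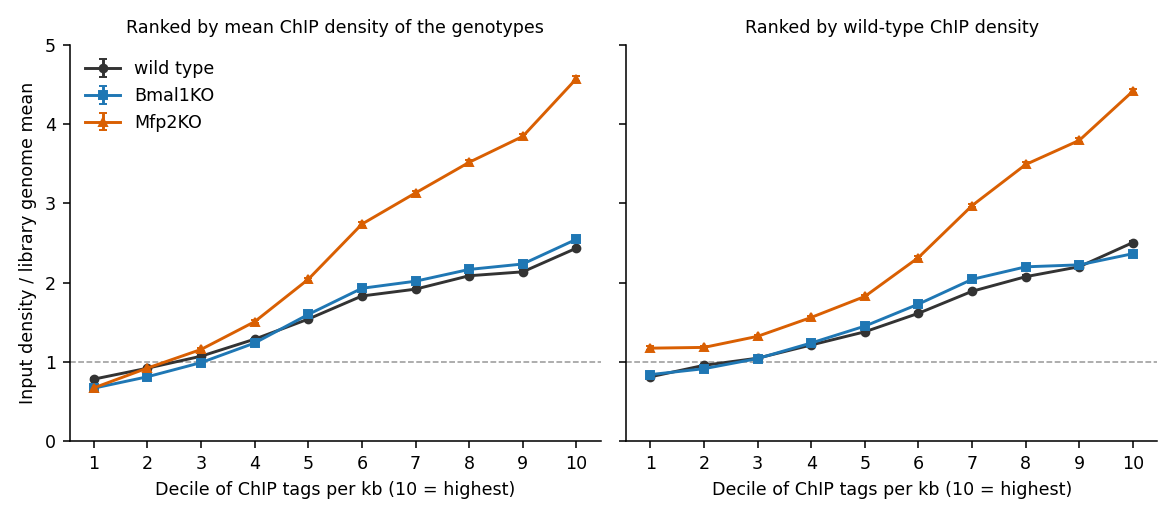
Input density of the shared regions (tags per kb over the genome mean of that library, y axis) in deciles of ChIP tags per kb (x axis), ranked by the mean over genotypes (left) or by wild type alone (right), with 95% counting intervals, most of them smaller than the symbols. Wild type and Bmal1KO run close together, while Mfp2KO ends at 4.57 on the left and 4.41 on the right.

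The 2 ends of this ranking differed in kind. In the lowest decile the inputs of both knockouts were below wild type, with ratios of 0.855 for Bmal1KO (0.830 to 0.881) and 0.860 for Mfp2KO (0.832 to 0.887). In the highest decile Mfp2KO was 1.88 times wild type (1.86 to 1.90) and Bmal1KO 1.05 times (1.03 to 1.06). A 4-fold rule limits the input that a called region can have at a given ChIP density. For the lowest decile the limit was 1.45 times the library mean in the wild type, 1.21 in Bmal1KO and 1.17 in Mfp2KO. Measured input there was lower, at 0.783, 0.670 and 0.673. In the highest decile those limits were 11, 15.3 and 23.5, far above the measured input. Their part in the lower knockout values of the lowest decile was not tested. Ranked by wild type alone, as below, the lowest decile gave ratios of 1.03 for Bmal1KO and 1.44 for Mfp2KO.

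When regions were ranked by wild-type ChIP density alone, so that the knockout ChIP libraries played no part in the order, Mfp2KO input was above wild type in every decile. The ratio was 1.44 (1.41 to 1.48) in the lowest decile, 1.24 in the second and 1.76 (1.74 to 1.78) in the highest. Bmal1KO lay between 0.944 and 1.08 of wild type over the 10 deciles. With this ranking the rise from lowest to highest decile was 3.76 times in Mfp2KO, 3.08 in wild type and 2.81 in Bmal1KO, so the genotypes were much closer than with the mean ranking. This order in turn leans to the wild type, because its called length divides both its ChIP and its input. Neither ranking treats the genotypes alike.

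Called length moved input less than ChIP density did. In deciles of mean called length, wild-type input went from 1.08 in the shortest regions to 1.86 in the seventh decile and back to 1.5 in the longest. Bmal1KO followed the same course with 1.1, 1.96 and 1.58, and Mfp2KO with 1.51, 3.16 and 2.14. All 3 inputs were thus densest in regions of middle length, and Mfp2KO was 1.40 to 1.74 times wild type in every length decile.

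Other features of the Mfp2KO libraries moved with this result. In the authors' deposited headers, 57.2% of the Mfp2KO ChIP tags were in peaks, against 38.7% in wild type and 37.4% in Bmal1KO, and the fragment length of the ChIP library was 216 bp against 236 and 234 bp. Their part in the input difference was not tested. Across the 14443 regions, Spearman's rho between a genotype's input and its ChIP density was 0.756 in the wild type, 0.778 in Bmal1KO and 0.840 in Mfp2KO. These are descriptions, since both values of a region are divided by the same called length and the call itself links them.

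Regions that were not called in every list had less input, in each genotype. Regions called in wild type alone (8928) had a wild-type input of 0.720 times the library mean (0.711 to 0.728). Those called in Bmal1KO alone (4970) stood at 0.966 (0.95 to 0.981) and those in Mfp2KO alone (5224) at 1.31 (1.30 to 1.33). Mfp2KO had the densest input here too, although low input is itself a condition for a call.

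The choice of input changed the apparent enrichment of the shared regions. With its own input, ChIP over input had a median of 8.83 in the wild type, 9.74 in Bmal1KO and 11.3 in Mfp2KO. Divided by the wild-type input instead, the Mfp2KO ChIP had a median of 15.8. The wild-type ChIP divided by the Mfp2KO input had a median of 7.02, and the Bmal1KO ChIP 7.67. Exchanging wild-type and Bmal1KO inputs moved the medians little, to 9.19 for the wild-type ChIP and 9.55 for Bmal1KO.

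The authors' 4-fold limit would fall differently with exchanged inputs. With the Mfp2KO input, 14.8% of the shared regions were under 4-fold in wild type and 11.5% in Bmal1KO. These shares too rest on inputs taken over their own called sequence, so a part may come from the different lengths. When the inputs of wild type and Bmal1KO were exchanged, 4.45% and 4.99% were under 4-fold, which includes the loss from no longer using the input by which the region was called. The Mfp2KO ChIP divided by the wild-type input was under 4-fold in 3.77% of regions.

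By chromosome the 3 inputs were close to each other, and no autosome differed by 25% in any pair (0 of 19, or 0%). Relative to the median autosome, input per kb ranged from 0.850 (chromosome 13) to 1.11 (chromosome 3) in wild type. In Bmal1KO the range was 0.861 to 1.1 and in Mfp2KO 0.914 to 1.13, with the same 2 chromosomes at the ends. The order of chromosomes was largely shared: over the 19 autosomes, Pearson's r of log2 input was 0.972 for Bmal1KO and wild type, 0.856 for Mfp2KO and wild type, and 0.877 for the knockouts. These libraries share the regions and the genome sequence, so the correlations describe what is common to them.

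**Figure D2:**
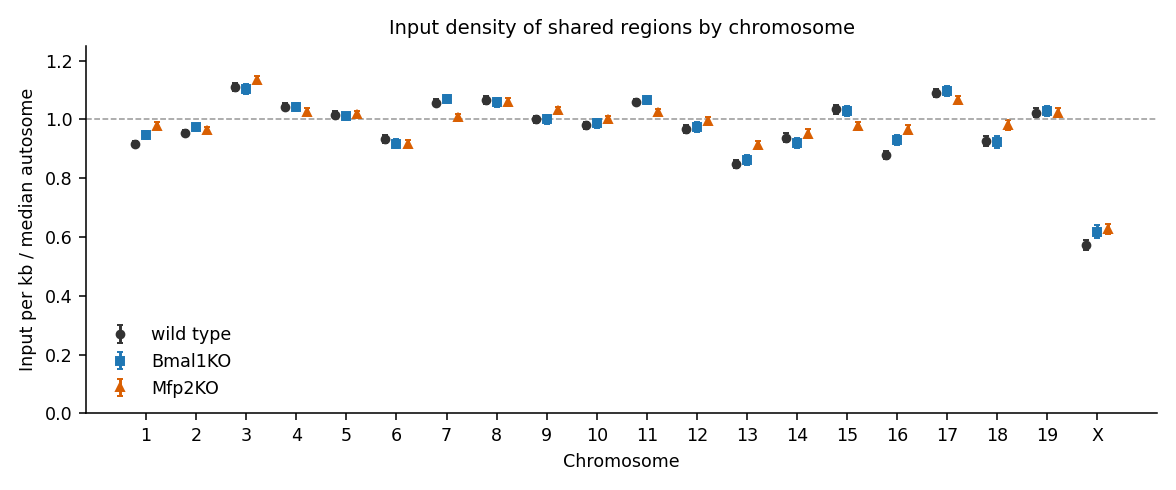
Input per kb of shared regions on each chromosome relative to the median autosome of the same genotype (y axis), with 95% counting intervals, for chromosomes 1 to 19 and X (x axis). Autosomes lie between 0.850 and 1.13, and X between 0.574 and 0.626.

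The differences between genotypes were of 10% or less. For Bmal1KO over wild type the highest chromosomes were 16 at 1.06 (1.03 to 1.09), 1 at 1.03 and 2 at 1.02, and the lowest were 14 at 0.980 (0.956 to 1.00), 6 at 0.982 and 8 at 0.992. For Mfp2KO over wild type the highest were 16 at 1.1 (1.07 to 1.12), 13 at 1.07 and 1 at 1.07, and the lowest were 15 at 0.947 (0.928 to 0.965), 7 at 0.952 and 11 at 0.968. The counting interval left out 1 on 3 autosomes for Bmal1KO and on 13 for Mfp2KO. Both comparisons use the same wild-type library, in which chromosome 16 was at 0.879, against 0.930 in Bmal1KO and 0.965 in Mfp2KO.

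Between the knockouts, Mfp2KO over Bmal1KO was highest on chromosomes 18 at 1.06 (1.03 to 1.09), 13 at 1.06 and 16 at 1.04. It was lowest on 7 at 0.941 (0.926 to 0.956), 15 at 0.951 and 11 at 0.961. ChIP tags per kb, measured in separate libraries, lay on the same side of 1 as input on 3 of these 6 chromosomes, 13 (1.02), 16 (1.04) and 15 (0.979), and on the other side on 7 (1.01), 11 (1.02) and 18 (0.957).

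Chromosome X, which the rule leaves out, was low in all 3 inputs. RAW264.7 comes from a male mouse, whose cells carry a single X beside paired autosomes, though the copies in these lines are not given in the labels. Its 336 shared regions had input of 0.574 of the median autosome in the wild type (0.557 to 0.591), 0.619 in Bmal1KO (0.598 to 0.639) and 0.626 in Mfp2KO (0.609 to 0.643). ChIP density on X was 0.692, 0.751 and 0.805 of the median autosome. With each region's input divided by that of its ChIP decile, a step added after the data were seen, X was at 0.626, 0.662 and 0.729, still below every autosome (lowest 0.885, 0.891 and 0.958). In the 14 windows of 5 Mb on X with 10 or more regions, relative input ran from 0.263 to 0.964 in the wild type, 0.360 to 0.931 in Bmal1KO and 0.357 to 1.43 in Mfp2KO. Single windows therefore scattered widely around the level of the chromosome. Only 4 autosomal windows in the wild type, 4 in Bmal1KO and 5 in Mfp2KO, of 394, had a relative input lower than that of X. Here the windows were set against the median window, at 8.82, 8.23 and 12.4 tags per kb. X was set against the median autosome, at 9.16, 8.49 and 12.6, so on a common scale these counts could be higher.

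Along the autosomes, 394 windows of 5 Mb held 10 or more shared regions and 96.9% of all shared regions. Each held 10 to 130 regions, with a median of 887, 603 and 860 input tags in the wild type, Bmal1KO and Mfp2KO. A window was called where its value was more than 25% above 1, or below 1 by the same factor, with a counting interval that left out 1. Within a genotype, against its own median window, 90 windows were called in the wild type (22.8%), 33 higher (8.38%) and 57 lower (14.5%). In Bmal1KO 79 were called (20.1%), 25 higher (6.35%) and 54 lower (13.7%), and in Mfp2KO 70 (17.8%), 34 higher (8.63%) and 36 lower (9.14%). Measured against the density over all shared regions instead of the median window, the split moved to 17 higher and 72 lower in the wild type, 17 and 71 in Bmal1KO, and 24 and 44 in Mfp2KO. Division by the ChIP decile left 29 called windows in the wild type, 26 in Bmal1KO and 13 in Mfp2KO, with 6 higher and 23 lower in wild type.

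Part of this profile was common to the 3 inputs. Of 129 windows called in at least 1 genotype, the same call was made in all 3 in 34, of which 11 were higher and 23 lower, and no window was called higher in one genotype and lower in another. Over the 394 windows Pearson's r of log2 relative input was 0.888 for Bmal1KO and wild type, 0.770 for Mfp2KO and wild type and 0.812 for the knockouts.

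Of the 5 windows among the 3 highest of any genotype, 2 were on chromosome 3. From 85 to 90 Mb relative input was 1.65 in the wild type, 1.62 in Bmal1KO and 1.52 in Mfp2KO, over 71 regions, with ChIP density at 1.64, 1.57 and 1.51. After division by the ChIP decile the values were 1.40, 1.38 and 1.16. From 90 to 95 Mb it was 1.55, 1.45 and 1.45. These windows were high in all 3 genotypes, as was chromosome 2 from 175 to 180 Mb at 1.64, 1.30 and 1.61. Chromosome 10 from 80 to 85 Mb, among the highest in Bmal1KO, was at 1.38, 1.42 and 1.28. On chromosome 8 from 20 to 25 Mb the values were 1.51, 1.37 and 1.81, the last being the highest window of Mfp2KO. Part of the tags in this window came from single very dense regions, given below.

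Near the other end of chromosome 8 the last window, from 125 to 130 Mb, was low in every genotype. Its 49 regions had relative input of 0.514 in the wild type (0.477 to 0.554), 0.540 in Bmal1KO (0.492 to 0.591) and 0.489 in Mfp2KO (0.454 to 0.528). The window just before it stood at 1.27, 1.17 and 1.08. ChIP density fell with input, from 1.03, 0.948 and 0.884 of the median window to 0.555, 0.571 and 0.498. After division by the ChIP decile the window was at 0.688, 0.751 and 0.774. Undivided, it was under the level of X in all 3 genotypes.

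In windows of 1 Mb, a view chosen after these values were seen, input was low from 125 Mb on. Low windows of this size are common: 201 of 1343 in the wild type, 204 in Bmal1KO and 244 in Mfp2KO were below 0.75. On chromosome 8 itself the first window of the plotted stretch, with 5 regions, was at 0.607, 0.688 and 0.808. Relative input from 124 to 125 Mb was 0.999, 0.873 and 0.902 in the wild type, Bmal1KO and Mfp2KO. From 125 to 126 Mb it was 0.810, 0.629 and 0.714, and from 127 to 128 Mb, over 25 regions, 0.433 (0.391 to 0.479), 0.461 (0.404 to 0.526) and 0.379 (0.339 to 0.422). From 129 to 130 Mb, with 4 regions, it was 0.480, 0.878 and 0.674, and the genotypes no longer lay together. Copy number and chromatin cannot be told apart from input in called regions alone.

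**Figure D3:**
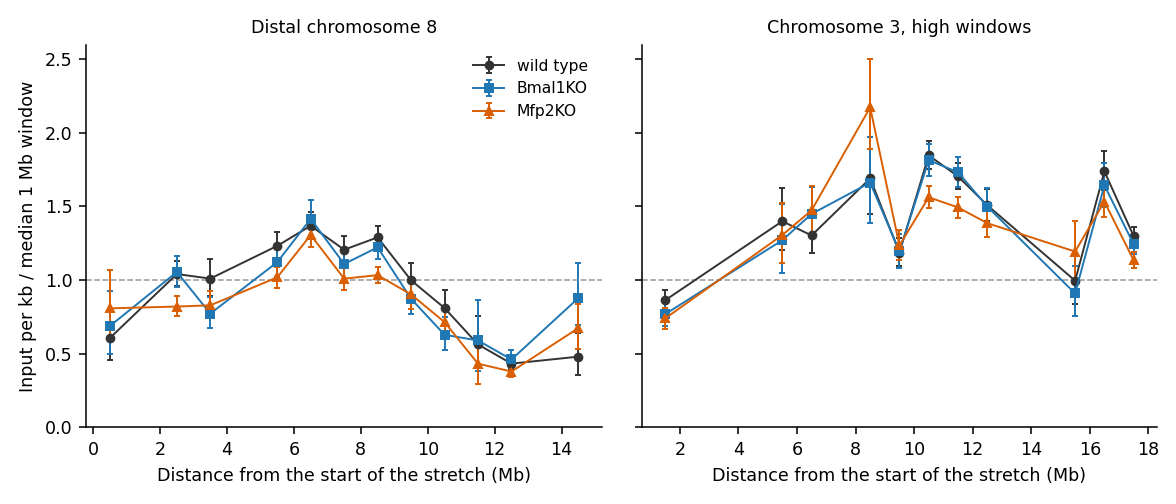
Input per kb, in 1 Mb windows holding 3 or more shared regions, relative to the median window of the genotype (y axis), by distance from the start of a stretch of chromosome 8 (left) and of chromosome 3 (right) in Mb (x axis), with 95% counting intervals. On the left, after a first window at 0.607 to 0.808, the windows from 120 to 124 Mb lie above 1 in all 3 genotypes, while the one with 25 regions lies between 0.379 and 0.461. On the right most windows lie above 1.

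Other low windows were less uniform. Chromosome 16 from 75 to 80 Mb was at 0.464 in the wild type, 0.578 in Bmal1KO and 0.610 in Mfp2KO, and chromosome 12 from 35 to 40 Mb at 0.540, 0.582 and 0.642. Chromosome 5 from 95 to 100 Mb stood at 0.684, 0.679 and 0.603, and chromosome 6 from 135 to 140 Mb at 0.720, 0.629 and 0.605. All 4 were low in every genotype.

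Between Bmal1KO and wild type, 9 of 394 windows were called (2.28%), 4 higher (1.02%) and 5 lower (1.27%). This split was not stable: it was 6 and 1 with fold over input of at least 6, 5 and 1 with called lengths of 1 kb or more, 6 and 2 without the 1% densest regions, 1 and 6 in odd-numbered regions and 9 and 14 with the merged length. The ratio was within 10% of 1 in 76.4% of windows, and the SD of its log2 was 0.127, where counting alone gives 0.0864. The called windows held a median of 13 regions, against 30 over all windows, so the calls lay where few regions were averaged. They were on 7 chromosomes.

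Highest was the first window of chromosome 13, from 0 to 5 Mb, where Bmal1KO was 1.6 times wild type (1.28 to 2.02) over 10 regions. Then came chromosome 13 from 80 to 85 Mb at 1.34 (1.14 to 1.57), chromosome 3 from 60 to 65 Mb at 1.26 (1.05 to 1.51) and chromosome 12 from 20 to 25 Mb at 1.26 (1.08 to 1.47). In each of these the wild-type input was the low one, at 0.806, 0.584, 0.526 and 0.832 of its median window. With the merged length only the first was still past 25%, at 1.76, and the others were at 1.06, 0.989 and 1.12.

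The lowest was chromosome 6 from 140 to 145 Mb at 0.756 (0.642 to 0.886), where ChIP density was also lower, at 0.741 of wild type. On chromosomes 1 from 20 to 25 Mb (0.765) and 19 from 50 to 55 Mb (0.773) input was lower but ChIP density was not, at 1.06 in both. Chromosome 3 from 25 to 30 Mb was at 0.776 and chromosome 2 from 175 to 180 Mb at 0.793, with ChIP ratios of 0.847 and 0.925. With the merged length chromosome 19 turned to 1.06 and chromosome 6 was at 0.949. ChIP density lay on the same side of 1 as input in 6 of the 9 called windows, and in 67.5% of all windows.

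Between Mfp2KO and wild type more windows differed: 25 were called (6.35%), 19 higher (4.82%) and 6 lower (1.52%), on 13 chromosomes. The split between higher and lower depended on how density was formed: it was 26 and 4 against all shared regions in place of the median window, 11 and 31 with the length of the merged region, 36 and 74 by medians over regions, and 0 and 3 where called lengths differed by at most 25%. The SD of the log2 ratio was 0.182, against 0.0783 from counting, and 55.3% of windows were within 10% of 1. The input ratio leaned with acetylation. In the 79 windows with the highest ChIP density its median was 1.07, and in the 79 with the lowest 0.954, against 0.999 and 0.976 for Bmal1KO. ChIP density and input share the called length as divisor, so part of this lean may be built in. How large that part is was not tested. After division by the ChIP decile, as for X, 14 windows remained past the limit (12 higher, 2 lower) and the SD was 0.147.

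**Figure D4:**
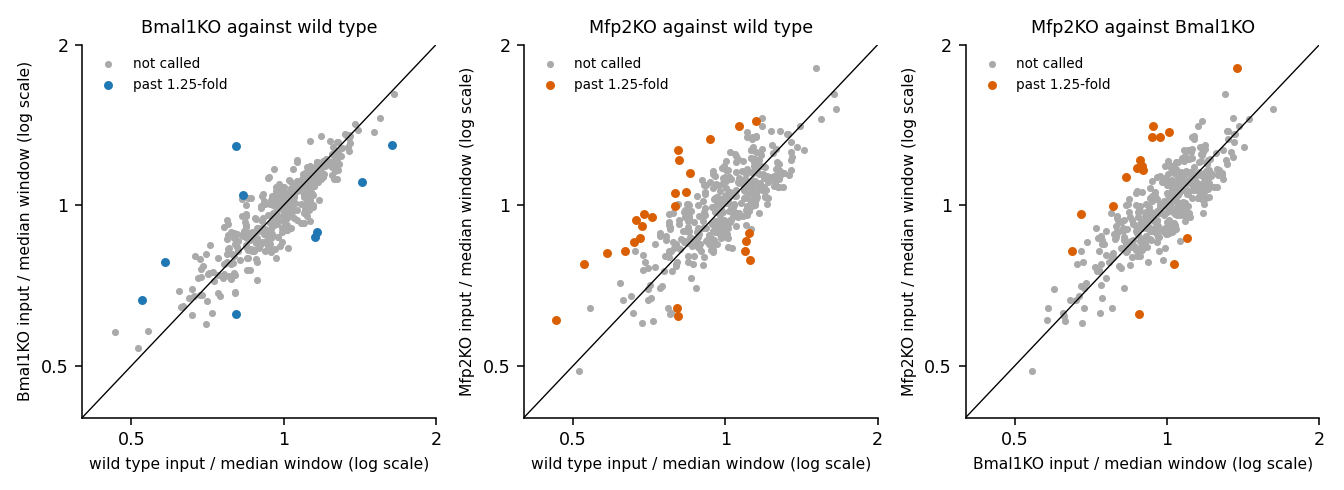
Input per kb in 394 autosomal windows of 5 Mb, each relative to the median window of its genotype, for the 3 pairs of genotypes (both axes on a log scale, line of equality in black). Coloured points are the windows past 25% with a counting interval without 1, which number 9, 25 and 16 from left to right.

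The highest was again chromosome 13 from 0 to 5 Mb, at 1.57 times wild type (1.29 to 1.95). Chromosome 4 from 15 to 20 Mb followed at 1.5 (1.29 to 1.75), then chromosome 3 from 60 to 65 Mb at 1.48, chromosome 19 from 60 to 65 Mb at 1.43 and chromosome 2 from 105 to 110 Mb at 1.41. ChIP density was higher too in these 5 windows, by ratios of 1.09 to 1.30. They held 10 to 15 regions each. With the length of the merged region in place of the called length, chromosome 3 turned to 0.874, and chromosomes 4 and 2 were at 1.09 and 1.00 with intervals that held 1. On chromosome 3 the called sequence was 63.6 kb in wild type and 27.8 kb in Mfp2KO.

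The lower windows of Mfp2KO held more regions. Chromosome 15 from 70 to 75 Mb was at 0.706 of wild type (0.650 to 0.767) over 30 regions, and chromosome 6 from 125 to 130 Mb at 0.75 (0.695 to 0.810) over 40. Chromosome 4 from 140 to 145 Mb was at 0.778 (0.733 to 0.825) over 57 regions, chromosome 3 from 25 to 30 Mb at 0.772 and chromosome 2 from 170 to 175 Mb at 0.796. ChIP ratios in these 5 windows were between 0.687 and 0.971, all below 1. With the merged length the first 3 were at 0.821, 0.906 and 0.95 and the last at 0.892, all short of a call, and chromosome 3 from 25 to 30 Mb at 0.703.

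Over the 25 called windows ChIP density lay on the same side of 1 as input in 19, against 68.0% of all windows, and was itself past 25% on that side in 5. Input and ChIP density are divided by the same called length, so a difference in length moves both alike. Odd- and even-numbered regions, taken apart, gave the same side in 24 of the 25 windows and a ratio past 25% in both sets in 7. For Bmal1KO these numbers were 8 and 2 of 9. Both sets are parts of the tags by which the windows were called, so the same side in both is no independent support.

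Where windows were called in both knockouts, all 4 lay on the same side, and they share the wild-type library. On chromosome 13 from 0 to 5 Mb relative input was 0.806 in the wild type, 1.29 in Bmal1KO and 1.27 in Mfp2KO. From 80 to 85 Mb of the same chromosome it was 0.584, 0.783 and 0.813. On chromosome 3 it was 0.526, 0.664 and 0.778 from 60 to 65 Mb, and 0.805, 0.624 and 0.621 from 25 to 30 Mb. In 3 of the 4 windows the knockouts were close to each other and the wild type stood apart. The windows were chosen because both knockouts differed from wild type, so this follows largely from the choice. With the merged length chromosome 3 from 60 to 65 Mb turned to 0.989 for Bmal1KO and 0.874 for Mfp2KO, and chromosome 13 from 80 to 85 Mb was at 1.06 for Bmal1KO.

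The direct comparison of the knockouts, which leaves the wild type out, called 16 windows (4.06%), 13 higher in Mfp2KO (3.3%) and 3 lower (0.761%). The SD of the log2 ratio was 0.159, with 0.0863 from counting. Chromosome 9 from 85 to 90 Mb was highest, at 1.5 (1.31 to 1.71) over 22 regions. Next were chromosome 6 from 55 to 60 Mb at 1.43, chromosome 1 from 95 to 100 Mb at 1.42, chromosome 15 from 10 to 15 Mb at 1.39 and chromosome 4 from 15 to 20 Mb at 1.37.

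Lowest in this comparison were chromosome 1 from 120 to 125 Mb at 0.711 (0.583 to 0.868), chromosome 4 from 50 to 55 Mb at 0.752 and chromosome 7 from 75 to 80 Mb at 0.793. The ChIP libraries gave 1.11, 1.05 and 0.947 there. With the merged length the call was lost on chromosome 7 (0.936) and, among the higher windows, on chromosomes 1 (1.18), 15 (1.14) and 4 (1.21). Over the 16 called windows ChIP density was on the same side as input in 9, against 56.3% of all windows, and in none was it past 25% on that side. The split of calls turned to 6 higher and 12 lower with the length of the merged region, and to 36 and 56 by medians.

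Long stretches that differed between genotypes were rare. Runs of 3 or more adjacent windows beyond 15% on one side were found only for Mfp2KO. On chromosome 7 from 10 to 30 Mb, 4 windows with 211 regions lay between 0.833 and 0.864 of wild type. Relative input there was 1.01, 1.34, 1.21 and 1.20 in the wild type, window by window, and 0.868, 1.14, 1.00 and 1.04 in Mfp2KO. With input divided by the length of the merged region the same windows lay between 1.04 and 1.153. In regions with called lengths within 25%, the window from 15 to 20 Mb stayed at 0.870 (0.807 to 0.939) over 22 regions. That from 25 to 30 Mb was at 0.908 (0.833 to 0.988) over 21, and the others held too few such regions. The direction thus depended on how length was treated. On chromosome 4 from 10 to 25 Mb, 3 windows with 42 regions were at 1.17 (1.04 to 1.33), 1.37 and 1.16 (0.930 to 1.43) times Bmal1KO. The interval of the last held 1, and the first was at 0.996 in even-numbered regions alone. For Bmal1KO over wild type there was no such run.

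Single regions with very dense input were few and common to the genotypes. On chromosome 8 (19833717-19835793) input was 17.9 times the library mean in the wild type, 14.1 in Bmal1KO and 24.7 in Mfp2KO. Another region of this chromosome (20697097-20699484) stood at 14.0, 9.26 and 15.9, and the next (20143264-20144783) at 6.52, 8.02 and 15.4. These 3 lie within 1 Mb of each other and fall in or beside the window that was highest in Mfp2KO. On chromosome 17 (6742766-6745636) the values were 11.4, 10.5 and 18.6, and on chromosome 6 (47636575-47637225) 8.74, 11.9 and 14.9. Without the 1% of regions with the densest input in any genotype, Mfp2KO input density was 1.59 times wild type.

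Among regions with at least 100 input tags over the genotypes, a few differed by much more than the windows. Input on chromosome 11 (3053261-3056788) was 4.19 times the library mean in wild type and 3.64 in Bmal1KO but 0.667 in Mfp2KO, on 82.5, 60 and 7 tags, a ratio of Mfp2KO to wild type of 0.159 (0.0624 to 0.345). The deposited fold over input there was 4.12, 4.89 and 18.6, so the first 2 lay near the authors' limit. In the other direction, chromosome 5 (102625627-102633433) stood at 1.09, 2.49 and 7.52, a ratio of 6.93 (4.48 to 10.5), and chromosome 12 (91810832-91816747) at 1.2503, 1.46 and 7.14. In the last 2 the called length was 7806 and 5777 bp in wild type but 1264 and 1462 bp in Mfp2KO, so the densities were taken over different sequence.

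For Bmal1KO the most different regions of this kind were on chromosome 7 (78918854-78925731), at 2.85 times wild type (1.62 to 4.88), and on chromosome 1 (21148058-21150877), at 0.326 (0.180 to 0.583). The region on chromosome 7 was called over 5426 bp in wild type and 1470 bp in Bmal1KO. The region on chromosome 1 had 44.5 tags in the wild type, 18 in Bmal1KO and 54.5 in Mfp2KO, over 1683, 2402 and 2408 bp. It lies in the window of chromosome 1 where Bmal1KO input was 0.765 of wild type. That window held 298.5 input tags in wild type and 164.5 in Bmal1KO, so the region is part of its ratio. Against its own median window Bmal1KO was at 0.891 there, which was not called.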

How the data were processed

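The values come from 3 HOMER peak lists, 1 per genotype, each called by the authors against the input of the same genotype, per the file headers (histone style, 500 bp windows, 4-fold and p 0.0001 over input). The tools named in the submitters' processing notes are HOMER 5.1, MACS3 3.0.3, Picard 3.4.0, SAMtools 1.23, BWA 0.7.19-r1273 and fastp 1.0.1, with build mm39. How duplicates were treated, and the role of each tool, are not given in the sources used here. Input tags are a deposited signal in steps of 0.5 tags, scaled to the ChIP total for Bmal1KO but left as counted for the others. All Bmal1KO values (100%) were multiples of 1 step within 0.05 tags, so counted tags were restored. The deposited ChIP signal is scaled to 10 M tags. The deposited fold over input, a ratio, was used to describe and filter regions, the deposited p-value only for the threshold, and the authors' score was not used. For wild type and Mfp2KO, input depth follows from the ChIP tags, deposited both scaled to the input total and scaled to 10 M. For Bmal1KO it follows from the step of the scaled input tags and the ChIP total. No peak is listed with input under 0.5 tags.

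Computed here (Python 3.11.15, pandas 2.3.3, SciPy 1.17.1) were merged regions, input per kb of called length and ratios, with exact Poisson or binomial 95% intervals. The window code was tested on simulated data. All 19 chromosomes are given by range, with the 3 highest and lowest of each pair. Windows named are the 5 highest and 5 lowest called in each pair, runs of 3 beyond 15%, and the 3 highest and lowest within each genotype. Regions named are the 5 with the densest input and those with the most extreme ratios and at least 100 tags, of which a part is printed. Members, measures and alternatives were chosen with earlier results of these data known.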

Additional observations from a re-analysis of the deposited data

Results flagged for a closer look

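Shared regions outside chromosomes 1 to 19 and X, which no comparison uses, include 2 with input far above the rest. On the unplaced sequence MU069435v1 (29032-31129) input was 227 times the library mean in the wild type, 252 in Bmal1KO and 396 in Mfp2KO. On JH584304v1 (58803-61244) it was 64.9, 63.4 and 63.8 times, with no excess of Mfp2KO. The 10 shared regions on such sequences held 0.0241%, 0.0243% and 0.0379% of the 3 inputs.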

How the results depend on the processing

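Most of these results are sums over called sequence, and both the length used and medians in place of sums moved them. No paired analysis was possible because each genotype has 1 input library. Mfp2KO input density in shared regions stayed above wild type in all 7 alternatives, at 1.20 with the length of the merged region, 1.47 as a median over regions, 1.5 with called lengths within 25%, 1.59 without the 1% densest regions and 1.72 with fold over input of at least 6. Bmal1KO over wild type turned to 0.992 with called lengths within 25% and to 0.822 with the length of the merged region, and was 1.01 as a median, 1.06 with 1 kb or more and 1.07 with fold of at least 6. Tags outside the called part are not in the files, so dividing by the merged length lowers the genotypes with shorter calls. From lowest to highest ChIP decile, input rose 2.97, 3.64 and 6.46 times in wild type, Bmal1KO and Mfp2KO without the densest 1% and 2.91, 3.45 and 5.69 times with 1 kb or more. By deciles of the same genotype Bmal1KO was at 4.10 and Mfp2KO at 7.76, and by wild-type deciles at 2.81 and 3.76.

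Calls between genotypes rest on few tags per window. In the order Bmal1KO over wild type, Mfp2KO over wild type, and Mfp2KO over Bmal1KO, called windows numbered 0, 3 and 1 with called lengths within 25% (104 windows left), 24, 110 and 92 by medians, 2, 12 and 4 in 10 Mb windows, 19, 43 and 30 with at least 5 regions, 2, 11 and 4 with at least 20, and 1, 1 and 1 past 1.5-fold. For the first 2 pairs they were 23 and 42 with the merged length and 5 and 14 standardised by ChIP decile, and for the last 2 pairs 47 and 33 in 2.5 Mb windows. Their SD of log2 was 0.0917, 0.142 and 0.131 with called lengths within 25%, 0.166, 0.207 and 0.142 with the merged length, 0.177, 0.290 and 0.272 by medians, 0.101, 0.163 and 0.139 in 10 Mb windows, 0.143, 0.199 and 0.178 with at least 5 regions, 0.0990, 0.155 and 0.139 with at least 20, and 0.115, 0.147 and 0.140 standardised. It was also 0.116 for the first pair with 1 kb or more, 0.167 for the second with fold of at least 6, and 0.173 and 0.171 for the last in odd and even regions. Within wild type, Bmal1KO and Mfp2KO, called windows numbered 6, 8 and 16 with called lengths within 25%, 47, 37 and 28 in 10 Mb windows, 42, 40 and 39 with at least 20 regions, 16, 12 and 16 past 1.5-fold and 29, 26 and 13 standardised. Wild type had 57 in odd regions, Bmal1KO 128 and Mfp2KO 192 by medians, and 121 and 127 in 2.5 Mb windows, and Mfp2KO 142 with the merged length.

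On chromosome 16, Bmal1KO over wild type was 1.03 with called lengths within 25% and by medians. Mfp2KO over wild type was 1.07, 1.13, 1.07, 1.06, 1.03 and 1.05 there with called lengths within 25%, odd regions, even regions, fold of at least 6, merged length and medians. On chromosome 7, Mfp2KO over Bmal1KO was 0.957, 0.918, 0.979 and 0.957 with odd regions, even regions, merged length and standardised. No chromosome passed 25% in any of these. The 33 named windows, counted once for each pair of genotypes, kept their side of 1 in 303 of 311 values. They were picked by their ratios and the settings reuse the same tags, so this is no independent support. Settings in which a window had too few regions are not among these values. With the merged length Bmal1KO over wild type turned to 0.989 on chromosome 3 (60 to 65 Mb) and 1.06 on chromosome 19 (50 to 55 Mb), and Mfp2KO over wild type to 0.874 on chromosome 3 (60 to 65 Mb) and 1.06, 1.04, 1.153 and 1.08 along chromosome 7 (10 to 30 Mb). Mfp2KO over Bmal1KO turned to 0.996 on chromosome 4 (10 to 15 Mb) in even regions. The cause was not tested.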
